A study of Mus musculus with 4 samples.

Results

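Foamy macrophages were examined in mouse aorta by single-cell RNA sequencing. A barcode was counted as a foamy macrophage when it held at least 5 unique molecular identifiers (UMIs) of the complement genes C1qa, C1qb and C1qc summed, at least 2 UMIs of Gpnmb, Trem2 and Mmp12 summed, and 0 UMIs of the lymphocyte genes Cd79a, Ms4a1 and Cd3e. It also had to hold at least 1000 UMIs in all, with at most 10% of them from mitochondrial genes. The members were thus chosen by their own measured values of these 9 genes, which are described below and not tested. They numbered 593 of the 70795 deposited barcodes, and 593 of the 1308 barcodes that met the C1q rule, which are called C1q macrophages here. The other 715 C1q macrophages served as the comparison. Of these, 150 had at least 2 UMIs of Lyve1 and Folr2 and are called resident macrophages.

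There were 4 libraries, with 1 per group. WT and LysM-DKO mice, both with an intact Apoe gene as far as the labels say, were kept on normal diet. WT ApoE-/- and LysM-DKO ApoE-/- mice were kept on western diet. LysM-DKO is not spelled out in the labels, which also leave out the age of the mice and how many aortas were pooled. The series title names epsins, which are endocytic adaptor proteins, and LysM is the usual name of the Lyz2 gene, whose promoter drives Cre in myeloid cells of many mouse lines. Where 4 values stand together, the normal diet comes first, and within a diet WT comes before LysM-DKO. Diet differed together with the ApoE genotype, with the Cell Ranger version in the file headers, and with Xist, which was at 1654, 1297, 0 and 0 CPM (UMIs scaled to a sum of 1000000 per library) in the foamy macrophages. The Y-linked gene Ddx3y was at 0, 0, 52.5 and 66.9 CPM, so sex as read from these transcripts differed with the diet as well. These factors cannot be told apart in any comparison between diets.

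Foam cells are macrophages that have taken up lipoprotein cholesterol in the arterial wall and store it as esters in droplets. TREM2 is a surface receptor for lipids that signals through the adaptor TYROBP and the kinase SYK. GPNMB is a membrane glycoprotein of the lysosome, and MMP12 is an elastase that macrophages secrete. Cells that express these genes together are also described as lipid-associated macrophages. Cholesterol leaves them through the transporters ABCA1 and ABCG1, which the sterol-sensing nuclear receptors LXR induce. Resident macrophages of the arterial adventitia carry LYVE1, FOLR2, CD206 (Mrc1) and CD163.

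Foamy macrophages were few on normal diet and common on western diet. The libraries held 10, 32, 485 and 66 of them among 85, 187, 901 and 135 C1q macrophages. Their summed UMIs were 87680, 252944, 2476430 and 463310, so 3 UMIs, the limit that a count of 0 allows, correspond to 34.2, 11.9, 1.21 and 6.48 CPM. The median foamy macrophage held 7842.5, 6853.5, 4144 and 5729 UMIs, against 4400, 4210, 1908.5 and 3077 in the other C1q macrophages. No barcode sequence was shared between libraries among the 593 foamy macrophages. Among all 37865 barcodes passing the filters on depth and mitochondrial UMIs, 143 were shared, summed over the pairs of libraries. Across all libraries 24 foamy macrophages were called doublets and were kept.

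The name fits the western diet members better than those on normal diet. Of the 10 members in WT on normal diet, 8 were chosen by Trem2 alone, and of the 32 in LysM-DKO on normal diet, 19 were. All of Gpnmb, Trem2 and Mmp12 were seen in 0, 0, 130 and 23 members. Gpnmb was at 22.8, 75.1, 1484 and 1312 CPM, Trem2 at 297, 237, 1253 and 809 CPM, and Mmp12 at 11.4, 494, 1022 and 963 CPM. The sum of the 3 genes ranged from 2 UMIs to 6, 48, 326 and 227 UMIs, with a median of 2.5, 3, 6 and 8.5. Of the members, 4, 11, 65 and 8 also met the Lyve1 and Folr2 cutoff of the resident macrophages. In WT ApoE-/- on western diet, 23 of these were among the members with 2 of the 3 genes seen. That class held 0 UMIs of Lyve1, so the 23 met the cutoff by Folr2 alone. Another 29 were among the members with all 3 genes, which held 5 UMIs of Lyve1.

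**Figure D1:**
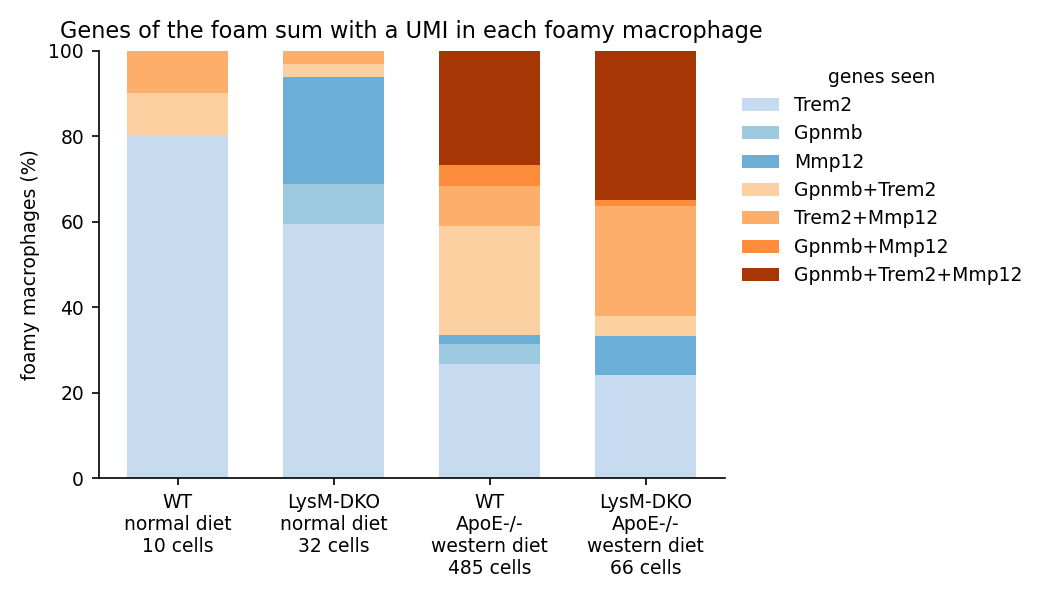
Foamy macrophages of each library by which of Gpnmb, Trem2 and Mmp12 had at least 1 UMI, as a percentage of the foamy macrophages of that library (vertical axis). Members seen with Trem2 alone make up most of the normal diet bars, and members with all 3 genes appear only in the western diet bars, 130 of 485 and 23 of 66.

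At the edge of the rule, the 118 members with a foam gene sum of 2 had a median of 3070.5 UMIs in all and 23.5 C1q UMIs. The 235 C1q macrophages just outside it, with a sum of 1, had a median of 2332 UMIs and 12 C1q UMIs. A C1q sum of 5 was found in 29 members, all from WT ApoE-/- on western diet, and 31 barcodes that otherwise met the rule had a sum of 4. A further set was the barcodes with over 5% of UMIs from wall markers and 0 UMIs of the lymphocyte genes. The foam gene cutoff was met by 24 of 1307, 21 of 983, 121 of 4561 and 32 of 4018 of them. Both the C1q and the foam gene cutoffs were met by 0, 0, 17 and 0 of them. These 17 met the whole rule, so they are themselves members and no outside comparison. Barcodes with at least 2 UMIs of the lymphocyte genes cannot be members. Both cutoffs were met by 0 of 1002, 1 of 1405, 4 of 591 and 0 of 22 of these lymphocyte barcodes. In WT ApoE-/- on western diet 1.69% of them met the C1q cutoff and 1.52% the foam gene cutoff. Wall markers are here the fixed lists of smooth muscle, fibroblast and chondrocyte genes. The median depths of the barcodes rich in wall markers were 7678, 7316, 4077 and 7157.5 UMIs.

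Macrophage markers were present throughout: the 10 listed genes summed to 4585, 5472, 7439 and 6393 CPM, with Mertk at 0 in WT on normal diet. In the other C1q macrophages they summed to 4626, 4795, 3292 and 5505 CPM. The classes thus differed most in WT ApoE-/- on western diet. Smooth muscle markers were also measured, at 2178, 4076, 6446 and 5046 CPM in foamy macrophages and 6818, 6740, 16740 and 9027 CPM in the other C1q macrophages. Over 1% of UMIs came from wall markers in 0, 4, 183 and 7 of the foamy macrophages. The same held for 16 of 75, 25 of 155, 279 of 416 and 6 of 69 other C1q macrophages. The 8 neutrophil markers summed to 0, 31.6, 29.9 and 25.9 CPM in foamy macrophages and to 31.8, 30.8, 16.7 and 25.2 CPM in the other C1q macrophages, with 0, 2, 3 and 3 of them seen in foamy macrophages and S100a9 at 0 throughout. Of the 8 dendritic cell markers 3, 4, 6 and 7 were seen, with Itgae at 0 throughout.

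The share of C1q macrophages that were foamy was 11.8% (95% exact binomial interval 5.79 to 20.6) in WT on normal diet, and in LysM-DKO it was 17.1% (12.0 to 23.3). On western diet it was 53.8% (50.5 to 57.1) in WT ApoE-/- and 48.9% (40.2 to 57.6) in LysM-DKO ApoE-/-. These intervals cover counting error only, as do all those below, and with 1 library per group no difference between groups could be tested. The shares on the western diet lay above those on normal diet, and the genotypes overlapped on each diet.

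Depth differed between the libraries, so every barcode was also thinned to 1000 UMIs. The share was then 0 of 53, which allows up to 5.66%, 4 of 130 (3.08%), 244 of 640 (38.1%, 34.3 to 42.0) and 23 of 114 (20.2%, 13.2 to 28.7). At equal depth the intervals of the genotypes on western diet thus lay apart, with LysM-DKO ApoE-/- lower. They also lay apart when barcodes with over 1% of UMIs from wall markers were left out, a filter chosen after seeing the data. The shares were then 68.8% (64.2 to 73.1) in WT ApoE-/- and 48.4% (39.2 to 57.6) in LysM-DKO ApoE-/-. With at least 10 C1q UMIs the intervals lay apart as well. They overlapped with at least 2000 or 500 UMIs, at least 4 foam gene UMIs, doublets removed, or mitochondrial UMIs up to 20%. Over all barcodes passing the depth and mitochondrial filters, foamy macrophages made up 0.129, 0.389, 3.53 and 0.812%. Each group was 1 library, and the part of tissue dissociation in these shares was not tested.

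**Figure D2:**
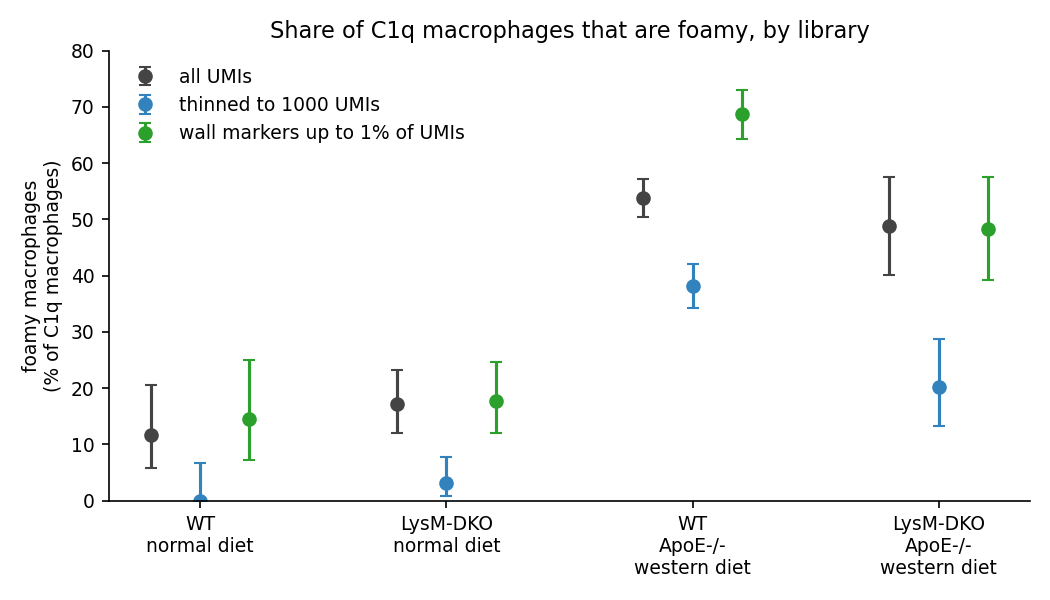
Share of C1q macrophages that were foamy in each library (vertical axis, percent), with all UMIs, after thinning to 1000 UMIs and after leaving out barcodes rich in wall markers. Bars are exact 95% binomial intervals, which cover counting error only. The western diet libraries sit above the normal diet libraries under each way of counting.

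To describe what foamy macrophages expressed beyond the genes that chose them, their summed UMIs were compared with those of the other C1q macrophages of the same library. In foamy macrophages 9 of 23 tested lipid-associated genes and 8 of 43 lysosomal genes were higher, and 13 of 17 genes of resident and alternatively activated macrophages were lower. Among 5107 genes tested with edgeR's quasi-likelihood test, with the library as a block and Benjamini-Hochberg adjustment, 112 were higher (2.19% of genes tested) and 179 were lower (3.5%) in foamy macrophages at an adjusted p under 0.05. The 4 libraries are 4 conditions, so the spread in this test covers conditions and libraries together. The classes were split on counts in the same barcodes, so the calls describe genes that varied together with Gpnmb, Trem2 and Mmp12. The calls depended on the western diet libraries: without WT ApoE-/- there were 20 higher and 19 lower, and without LysM-DKO ApoE-/- there were 37 and 65. Without LysM-DKO on normal diet there were 76 and 105. Only 10 of the 112 and 11 of the 179 were called whichever library was left out.

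Lipid-associated genes stood higher as a list. Of 23 tested members of the list, 9 were higher and 0 lower, with a median log2 fold change of 1.01 beside -0.01 for all genes tested. Fabp5, which encodes a fatty acid binding protein, was at 308, 2629, 3210.3 and 2669.9 CPM in foamy macrophages and at 31.8, 504, 236 and 105 CPM in the others. It was higher in foamy macrophages in all 4 libraries, with a log2 fold change of 3.49 (edgeR adjusted p = 0.000366). The normal diet levels of Fabp5 rested on 1 cell each, which held 96.3% of its UMIs in WT and 82.1% in LysM-DKO. Lgals3, the gene of the carbohydrate-binding lectin galectin-3, was at 662, 1336, 3407 and 2931 CPM against 263, 418, 676 and 314 CPM. It rose by 2.15 on the log2 scale (edgeR adjusted p = 0.00351), again in all 4 libraries.

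Lpl, which encodes lipoprotein lipase, was at 34.2, 134, 604 and 276 CPM in foamy macrophages against 49.1, 29.3, 96.0 and 37.7 CPM. Its log2 fold change was 2.19 (edgeR adjusted p = 0.0111), although WT on normal diet, with 3 UMIs, did not share the direction, and the call was lost without WT ApoE-/-. Itgax, the gene of the integrin CD11c, was at 11.4, 115, 239.9 and 189.9 CPM against 11.6, 24.9, 47.6 and 21.0 CPM, a log2 fold change of 2.33 (edgeR adjusted p = 0.00351). It too was level in WT on normal diet, where it gave 1 UMI. Capg, an actin-capping protein, and Anxa5, a phospholipid-binding annexin, had log2 fold changes of 1.85 and 0.92, in the same direction in all 4 libraries. The rise of Capg was not called without WT ApoE-/- on western diet, and that of Anxa5 was not called without any 1 of the 3 libraries other than WT on normal diet.

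Spp1, which encodes the secreted protein osteopontin, was at 45.6, 79.1, 14772 and 2454 CPM in foamy macrophages and at 31.8, 109.9, 3791 and 71.3 CPM in the others. Its log2 fold change of 1.96 did not pass the test (edgeR adjusted p = 0.118), and on normal diet the classes did not differ in 1 direction. Without LysM-DKO on normal diet its log2 fold change was 2.80 and passed. Plin2, which coats lipid droplets, was at 411, 399, 709 and 689 CPM against 517, 387, 219.7 and 389.9 CPM, a difference that did not pass (edgeR adjusted p = 0.280). In the list of lipid droplet and lipolysis genes 0 of 8 were called.

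Of the cholesterol efflux and LXR genes, 1 of 12 was called. Abcg1, the transporter that passes cholesterol to high-density lipoprotein, was at 79.8, 71.2, 458 and 369 CPM in foamy macrophages and 14.4, 41.0, 96.7 and 46.1 CPM in the others. It was higher in all 4 libraries, by 2.10 on the log2 scale (edgeR adjusted p = 0.00767). Its normal diet levels were counts of 7 and 18 UMIs, and the 7 came from 1 cell. The call was lost without WT ApoE-/- on western diet, where the log2 fold change was 2.01. Abca1, the transporter that loads apolipoprotein A-I, was at 308, 293, 835 and 663 CPM against 352, 460.2, 325 and 461 CPM. It was below the other C1q macrophages on normal diet and above them on western diet, with a log2 fold change of 0.30 (edgeR adjusted p = 0.616) that turned to -0.10 without WT ApoE-/- on western diet. Insig1, a sterol-regulated brake on cholesterol synthesis, was lower by the test and was the 1 call among 5 tested genes of cholesterol synthesis, with a log2 fold change of -1.17. That call was lost without any 1 library.

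Genes of the Trem2 signalling pathway rose in part. Of 12 tested, Tyrobp, Syk and Ms4a7 were higher and 0 were lower, with a list median of 0.52. Tyrobp, the adaptor through which TREM2 signals, was at 776, 1332, 1218 and 1431 CPM against 430.3, 657, 488 and 583 CPM, a log2 fold change of 1.12 (edgeR adjusted p = 0.0111). Syk, the kinase recruited by TYROBP, had a log2 fold change of 1.14, and Ms4a7, a membrane protein of macrophages, 1.11. All 3 were higher in foamy macrophages in each library, and all 3 calls were lost without WT ApoE-/- on western diet. Of the lipoprotein uptake genes, 1 of 9 was called: Cxcl16, a membrane chemokine that also binds oxidized lipoprotein, with a log2 fold change of 1.31, also not called without WT ApoE-/-.

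Lysosomal genes were higher in 8 of 43 tested members and lower in 0, with a list median of 0.55. Those called included Ctsd, Ctss and Ctsz, which encode cathepsin proteases, Gusb, which encodes a glycosidase, Lipa, the acid lipase that frees cholesterol from esters, Psap, the precursor of the saposins, and Atp6v1c1, a subunit of the proton pump. Ctsd was at 422, 814, 4148 and 2519 CPM in foamy macrophages against 352, 549.7, 596 and 423 CPM, a log2 fold change of 1.61 (edgeR adjusted p = 0.0394). The gap between the classes was small on normal diet and wide on western diet, and the call was lost without either western diet library. Lipa had a log2 fold change of 1.09 and Gusb of 1.48. All 8 genes were higher in foamy macrophages in each library, and none of the 8 calls held without WT ApoE-/- on western diet. Ctsl, a further cathepsin, was at 194, 522, 2837 and 2139 CPM against 410.1, 418, 421 and 310.3 CPM and did not pass (edgeR adjusted p = 0.167). Lamp1, a major protein of the lysosome membrane, was at 753, 1012, 1145 and 1099 CPM against 673, 957, 678 and 797 CPM and did not pass (edgeR adjusted p = 0.308).

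Lysosomal genes are known for the E-box CACGTG in their promoters, which transcription factors of the TFEB and MITF family can bind. The motif reads the same on both strands. RefSeq promoters, from 250 bases before to 50 after the start site on GRCm38.p6, were matched by symbol for 37 of the 49 listed lysosomal genes, and 13 of the 37 (35.1%) held the motif. It was found in 517 of 4069 matched genes among those tested (12.7%), in 5 of 82 matched genes called higher and in 15 of 134 called lower (11.2%). Among all 27025 genes of the table, 2187 (8.09%) held it. Of the lysosomal genes called higher, 6 were matched and 1, Ctsd, held it. The promoters of Gpnmb, Trem2 and Mmp12 held none. The 3 stretches of 250 bases before the start site are shown because they belong to the cathepsin gene called higher that holds the motif, to the cathepsin gene with a like western diet level that did not pass, and to the membrane protein gene with the most copies, with CACGTG in capitals. Ctsd lies on chr7:142387828-142388077 (minus strand), Ctsl on chr13:64370521-64370770 (minus strand) and Lamp1 on chr8:13158911-13159160 (plus strand).
Ctsd: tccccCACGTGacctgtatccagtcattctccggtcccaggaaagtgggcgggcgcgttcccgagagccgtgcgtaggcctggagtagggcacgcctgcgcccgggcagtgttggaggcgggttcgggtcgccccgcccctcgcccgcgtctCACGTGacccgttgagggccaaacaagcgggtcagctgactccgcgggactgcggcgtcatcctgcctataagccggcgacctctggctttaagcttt
Ctsl: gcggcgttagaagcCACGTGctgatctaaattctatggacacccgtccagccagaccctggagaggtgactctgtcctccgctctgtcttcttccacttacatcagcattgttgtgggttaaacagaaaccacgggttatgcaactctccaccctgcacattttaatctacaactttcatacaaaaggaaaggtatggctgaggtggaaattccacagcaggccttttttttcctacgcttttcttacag
Lamp1: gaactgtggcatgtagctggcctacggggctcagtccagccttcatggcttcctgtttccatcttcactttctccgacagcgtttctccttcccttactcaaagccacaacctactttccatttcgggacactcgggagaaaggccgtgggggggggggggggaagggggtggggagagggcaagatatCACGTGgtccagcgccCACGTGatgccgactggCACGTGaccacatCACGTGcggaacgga

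Beyond the lists, the genes called higher with the largest fold changes and a mean of at least 50 CPM included Gpr137b, a lysosomal membrane protein (log2 fold change 2.11), Tnfaip2, a gene induced by tumor necrosis factor (2.05), Pld3, a lysosomal nuclease (1.97), Cd72, a C-type lectin (1.92), Tnip3, an inhibitor of NF-kappaB signalling (1.85), and Myo1e, a class I myosin (1.76). Tnfaip2 was at 969, 534, 230.2 and 447 CPM in foamy macrophages against 199, 111, 72.2 and 109 CPM. Of the 10 highest and the 10 lowest genes by this rule, 7 and 7 were called whichever library was left out. Those that were not were Abcg1, Capg, Tnip3, Mmp9, Cd209f and C4b.

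Resident and alternative activation genes were the list with the most lower calls, 13 of 17 tested and 0 higher, with a median of -1.89. Cd163, the hemoglobin scavenger receptor, was at 148, 166, 10.1 and 51.8 CPM in foamy macrophages and 502, 371, 52.3 and 633 CPM in the others. It was lower in all 4 libraries, with a log2 fold change of -2.22 (edgeR adjusted p = 0.00759). Mrc1, the mannose receptor CD206, was at 833, 763, 133 and 177 CPM against 1201, 1269, 520.2 and 1870.0 CPM, a log2 fold change of -1.64 (edgeR adjusted p = 0.0287) that was not called without either western diet library. Retnla, a product of alternative activation, was at 0, 189.8, 3.23 and 34.5 CPM against 1141, 594, 45.2 and 779.9 CPM (edgeR adjusted p = 0.00598). In each of the last 2 libraries all of its UMIs in foamy macrophages came from 1 cell. The lectin Clec10a and the chemokine Ccl24 had log2 fold changes of -2.68 and -2.28. The comparison class held the resident macrophages, which were defined by Lyve1 and Folr2. Against the C1q macrophages that were neither foamy nor resident, Lyve1 went from -1.41 to 2.34, which follows from the cut, since that class holds under 2 UMIs of Lyve1 and Folr2. Against the same class Cd163, Mrc1, Retnla and Clec10a were no longer called, at -1.04, -1.05, -0.71 and -1.56.

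Transcription factors of macrophages divided. Bhlhe40, a basic helix-loop-helix factor, was higher at a log2 fold change of 1.55, while Maf, Klf2 and Klf4 were lower at -1.73, -1.37 and -1.16, out of 18 tested. Maf, a factor of resident macrophages, was at 148, 178, 76.3 and 112 CPM in foamy macrophages against 373, 362, 212 and 901 CPM. Of 23 inflammatory genes, the interleukin-1 receptor antagonist Il1rn and the lectin Clec4e were higher (1.37 and 0.98), and the monocyte chemokines Ccl2 and Ccl7 were lower (-0.91 and -1.06). Among genes of matrix degradation, the membrane protease Mmp14 and the protease Mmp19 were higher (1.5 and 1.75) and the gelatinase Mmp9 was lower (-3.04). Mmp9 was counted at 0, 7, 1 and 5 UMIs in foamy macrophages. Acp5, the acid phosphatase that macrophages share with osteoclasts, was higher at 1.93. Among the genes of this paragraph only Bhlhe40, Il1rn, Mmp14 and Mmp9 were still called without WT ApoE-/- on western diet, and only Il1rn whichever library was left out.

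No gene was called among 8 Fc receptor genes, 14 genes of fatty acid oxidation, 14 of glycolysis, 16 interferon-stimulated genes, 8 cell cycle genes or 17 endocytic adaptors. Over all genes tested 2.19% were called higher and 3.5% lower, so 0 calls in lists this short say little about them. In that order, 5, 8, 9, 1, 1 and 6 of the genes had log2 fold changes above 0, beside 2516 of all 5107. The dissociation stress list had 8 of 18 lower and 0 higher, with Fos and Egr1 at -1.11 and -1.69. The call for Egr1 held whichever library was left out, and that for Fos held only without LysM-DKO on normal diet. Smooth muscle markers were lower in foamy macrophages in the same comparison, at the levels given above, and their part in the lower calls was not tested. Macrophage markers as a sum were higher in foamy macrophages except in WT on normal diet, most so in WT ApoE-/- on western diet. The part of that gap in the higher calls was not tested either. With barcodes of over 1% wall markers left out, 93 genes were higher and 162 lower.

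**Figure D3:**
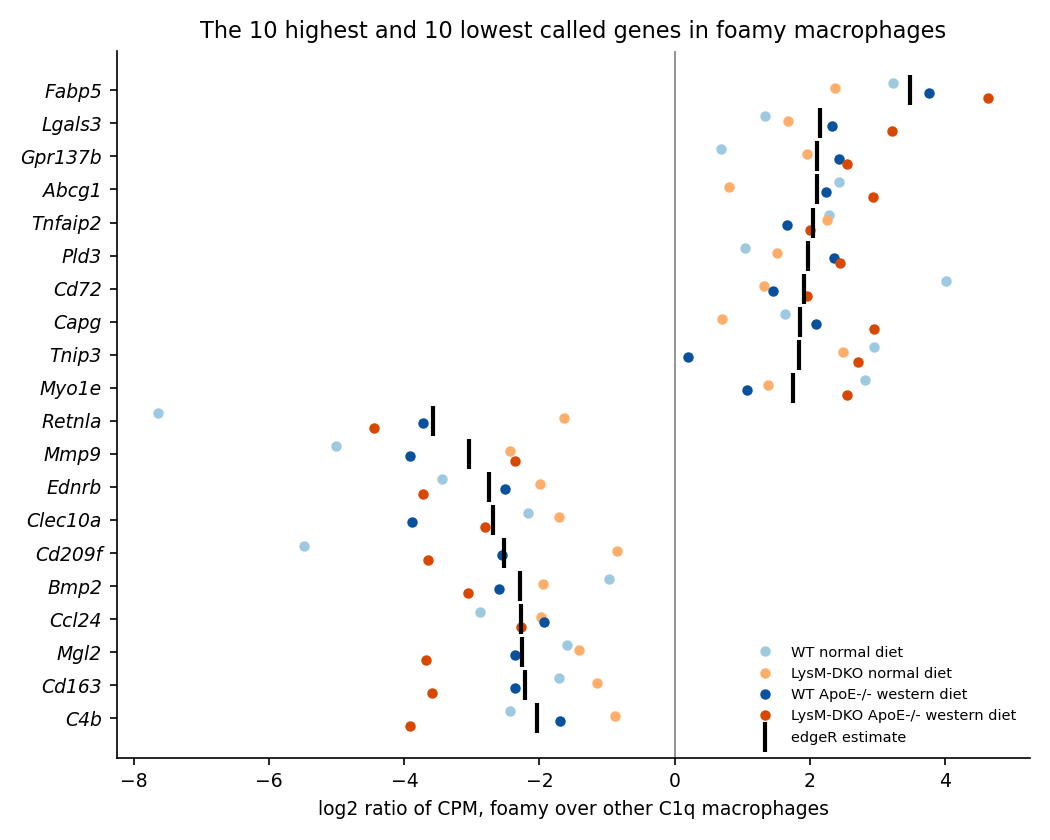
Log2 ratio of CPM in foamy over other C1q macrophages (horizontal axis) for the 10 highest and 10 lowest called genes, with 1 point per library and a bar for the edgeR estimate, the 9 rule genes left out. All points of a gene lie on the same side of 0 by the rule that chose these genes, from Fabp5 at 3.49 to Retnla at -3.57; 0.5 UMIs were added to each count, since some were 0.

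Foamy macrophages varied among themselves with the number of foam genes seen. In WT ApoE-/- on western diet 163, 192 and 130 members had UMIs of 1, 2 and 3 of the genes Gpnmb, Trem2 and Mmp12, and in LysM-DKO ApoE-/- 22, 21 and 23 did. These classes were cut from the members' own counts, so the values are given with no test. Their median depths were 3904, 3351 and 6692 UMIs in WT ApoE-/- and 4212.5, 5887 and 6699 UMIs in LysM-DKO ApoE-/-.

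Lipid-associated genes summed to 24734, 43178 and 69116 CPM over these classes in WT ApoE-/- and to 10456, 21882 and 51714 CPM in LysM-DKO ApoE-/-. Lysosomal genes summed to 26076, 36082 and 55175 CPM and to 16937, 26753 and 55966 CPM. Both lists were thus higher with each further foam gene in both libraries. Fabp5 went from 489 to 1940.1 and 6256 CPM in WT ApoE-/- and from 51.3 to 2516 and 5075 CPM in LysM-DKO ApoE-/-. Abcg1 was at 311, 432 and 588 CPM and at 169, 322 and 590.4 CPM, and Abca1 at 666, 769 and 1014 CPM and at 411, 578 and 967 CPM. In the members with all 3 genes the counting intervals of the genotypes overlapped for both transporters.

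Resident and alternative genes summed to 1887, 1129 and 1269 CPM in WT ApoE-/- and to 3644, 602 and 1250.0 CPM in LysM-DKO ApoE-/-, highest where 1 foam gene was seen and lowest where 2 were. Mrc1, 1 member of that list, was at 318, 91.0 and 33.1 CPM in WT ApoE-/- and at 506, 53.7 and 25.1 CPM in LysM-DKO ApoE-/-. Inflammatory genes summed to 22258, 13890 and 5744 CPM in WT ApoE-/- and to 22825, 26246 and 12896 CPM in LysM-DKO ApoE-/-, lowest in the members with all 3 genes. H2-Aa, a chain of the class II major histocompatibility complex (MHC), was at 878, 796 and 354 CPM in WT ApoE-/- and at 5719, 4162 and 2406 CPM in LysM-DKO ApoE-/-.

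**Figure D4:**
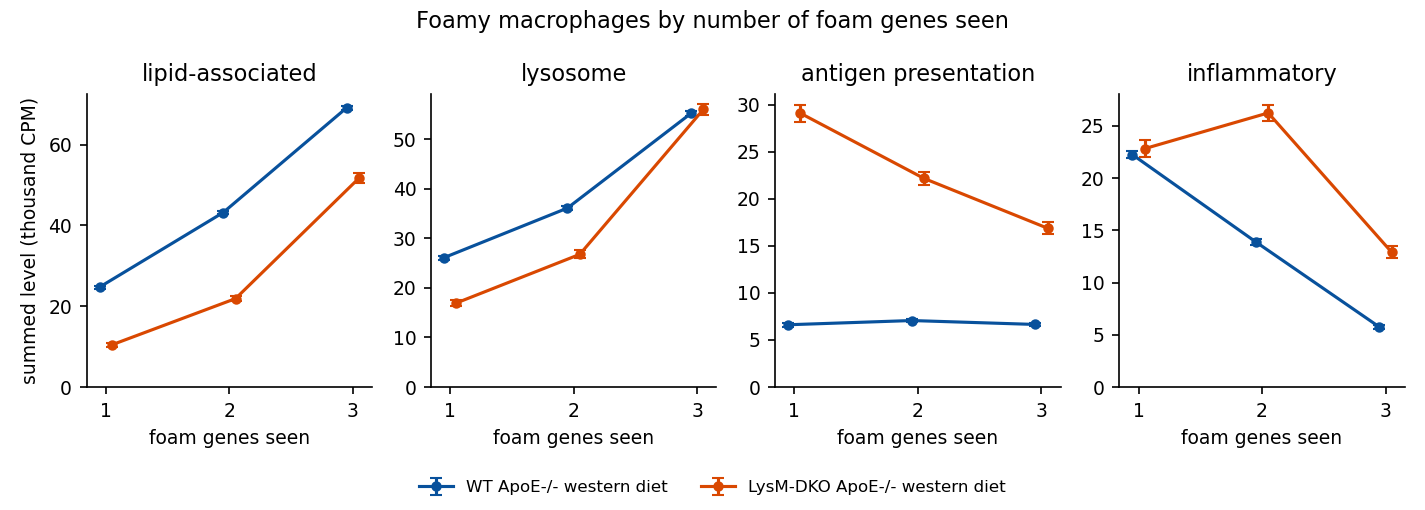
Summed level of 4 gene lists (vertical axes, CPM divided by 1000, each from 0) in foamy macrophages with 1, 2 or 3 of the foam genes seen (horizontal axis), for the western diet libraries, with exact 95% Poisson intervals. Lipid-associated and lysosomal genes are higher with each further gene seen in both libraries, up to 69116 and 51714 CPM for the first list.

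To compare the genotypes on western diet, CPM of the 485 and 66 foamy macrophages were set against each other. MHC class II genes were past 2-fold higher in LysM-DKO ApoE-/- than in WT ApoE-/-. Spp1, Lyz2 and Ctsk were past 2-fold lower. The efflux transporters differed little. With 1 library per group there is no test, and log2 ratios are given for LysM-DKO ApoE-/- over WT ApoE-/-. Of 8967 genes with at least 20 UMIs, 354 were past 2-fold higher (3.95%) and 663 past 2-fold lower (7.39%).

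Antigen presentation genes had a median log2 ratio of 1.80, with 7 of 11 past 2-fold higher and 0 past 2-fold lower. H2-Aa was at 627, 4539, 647 and 4017 CPM, H2-Ab1 at 331, 3432, 499.9 and 3361 CPM, and H2-Eb1 at 399, 3827, 552 and 3794 CPM. Cd74, the invariant chain that guides MHC class II to its compartment, was at 2087, 9267, 1199 and 7660.1 CPM. For each of these genes the LysM-DKO libraries were high and the WT libraries low on both diets. On western diet the log2 ratio of H2-Aa was 2.63 (2.54 to 2.73), and those of H2-Ab1, H2-Eb1 and Cd74 were 2.75, 2.78 and 2.68. Ciita, the master regulator of these genes, gave 2, 6, 7 and 16 UMIs and had a log2 ratio of 3.56 (2.25 to 5.13) on western diet.

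The difference was spread over cells. The richest cell held 5.81% of the UMIs of H2-Aa in WT ApoE-/- and 4.89% in LysM-DKO ApoE-/-. Summed over H2-Aa, H2-Ab1, H2-Eb1 and Cd74, at least 1 of 1000 UMIs was found in 4 of 10, 25 of 32, 167 of 485 and 53 of 66 foamy macrophages, or 40%, 78.1%, 34.4% (30.2 to 38.8) and 80.3% (68.7 to 89.1). The median was 0, 18, 0 and 19.5 of 1000 UMIs. Among members with all 3 foam genes seen the shares were 40.8% and 78.3% on western diet, and with barcodes rich in wall markers left out they were 31.8% and 79.7%.

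In the same cells a UMI of H2-Aa was seen in 20, 62.5, 20.6 and 62.1% of foamy macrophages after thinning, and in 30.0, 71.9, 31.8 and 77.3% before it. Other C1q macrophages gave 70.7, 74.2, 31.7 and 66.7% after thinning, so the gap to the other macrophages of the same library was widest in WT on normal diet. Barcodes without a C1q UMI, a mix of wall cells, lymphocytes and others, gave 14.4, 18.7, 10.9 and 0.597%. That mix differed between libraries, since 975, 1310, 540 and 21 of these barcodes held at least 2 UMIs of the lymphocyte genes. The part of free RNA in the difference was not tested. Dendritic cell markers, which sort with MHC class II, summed to 45.6, 115, 10.5 and 43.2 CPM, or 4, 29, 26 and 20 UMIs over 8 genes. In the other C1q macrophages they summed to 60.6, 74.8, 44.4 and 12.6 CPM. On both diets the sum in foamy macrophages was thus higher in LysM-DKO than in WT, as for MHC class II. Among these genes Flt3 gave 0, 0, 3 and 3 UMIs, while Ccr7 gave 23 of the 29 UMIs in LysM-DKO on normal diet and 0 in WT. The part of dendritic cells in the difference was not tested. B cell markers summed to 125, 1119, 62.2 and 56.1 CPM, and the part of B cell RNA in the difference was not tested.

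**Figure D5:**
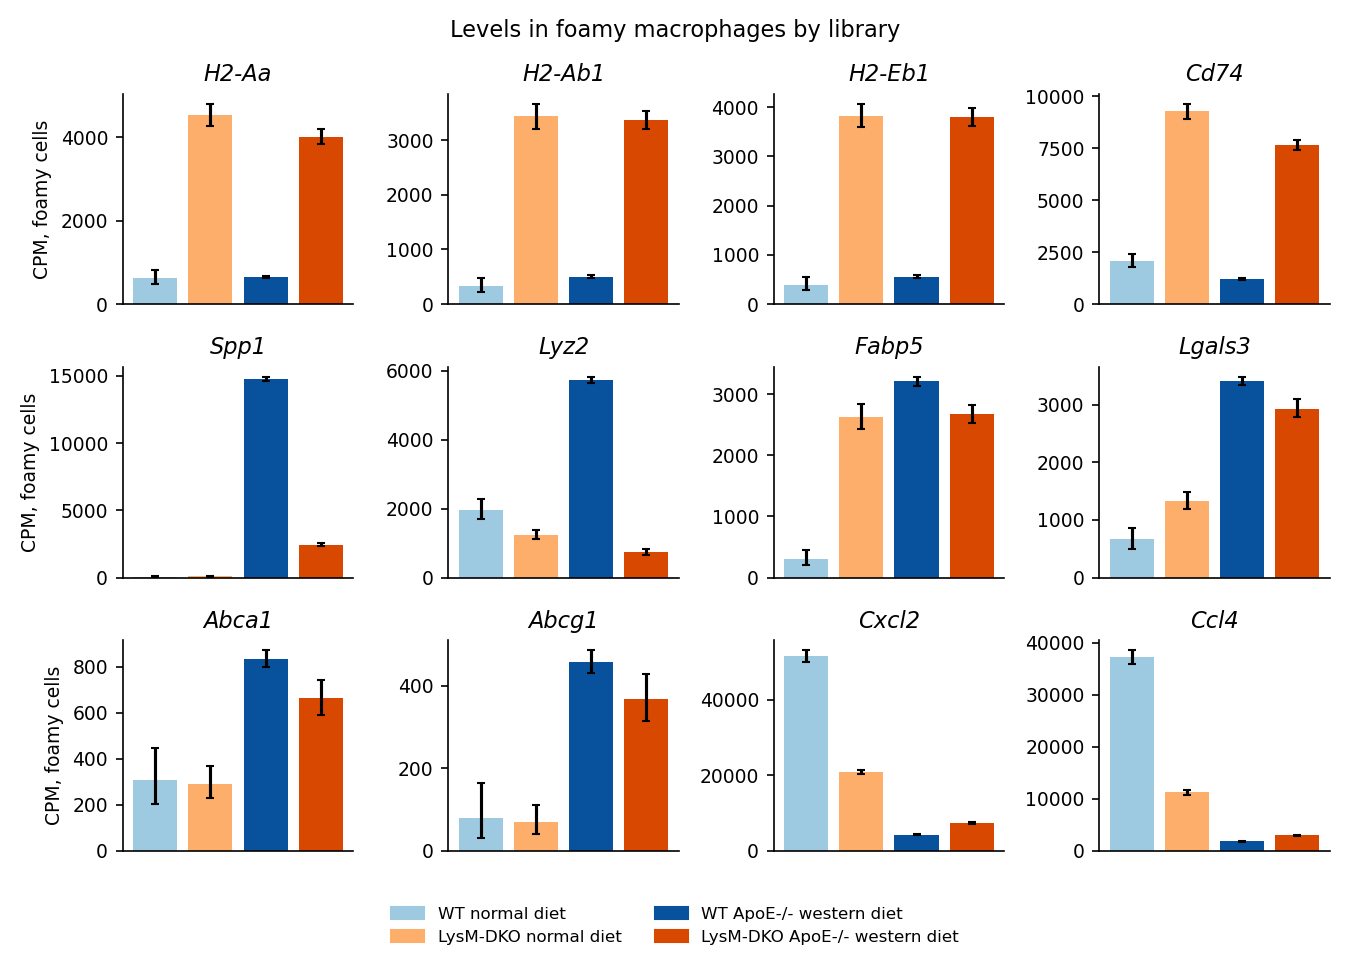
Level in foamy macrophages (vertical axes, CPM, each from 0) of 12 genes in the 4 libraries, with exact 95% Poisson intervals that cover counting error only. H2-Aa, H2-Ab1, H2-Eb1 and Cd74 are high in both LysM-DKO libraries, Spp1 and Lyz2 are highest in WT ApoE-/- on western diet, and Cxcl2 and Ccl4 are highest in WT on normal diet.

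Spp1 was at 14772 CPM in WT ApoE-/- and 2454 CPM in LysM-DKO ApoE-/-, a log2 ratio of -2.59 (-2.68 to -2.50). It was seen in 443 of 485 and 34 of 66 cells, or 81.0 and 27.3% after thinning, and 1 cell held 29.2% of its UMIs in LysM-DKO ApoE-/-. In the other C1q macrophages, at the levels given above, Spp1 was also lower in LysM-DKO ApoE-/-, by a wider ratio. The direction was thus not particular to foamy macrophages. Barcodes without a C1q UMI held Spp1 at 4301 and 318 CPM, and 42.3 and 2.41% of them showed it after thinning. Spp1 in these barcodes thus differed in the same direction, but they are mostly other cells, whose make-up differed too. Their fibroblast markers were at 13066 and 5662 CPM and their chondrocyte markers at 1475 and 481 CPM. Smooth muscle markers went the other way, at 33022 and 43804 CPM. The part of free RNA in the ratio of Spp1 was not tested. Ctsk, the collagen-degrading cathepsin of osteoclasts, gave 404 UMIs in 68 cells against 1 UMI, a log2 ratio of -5.66 (-11.55 to -3.75). Dcstamp, which drives the fusion of macrophages and osteoclasts, gave 120 and 5 UMIs, a log2 ratio of -2.04 (-3.82 to -0.90). These were the 2 genes past 2-fold lower among 9 measured genes of the list shared with osteoclasts, whose median was -0.19, while Acp5 was past 2-fold higher at 1.20 (0.80 to 1.58).

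Other genes among the 10 lowest by the naming rule were Itga6, a laminin receptor subunit, at -1.81, Olfml3, a secreted matrix protein, at -2.24, Gdpd3, a lysophospholipase, at -1.79, Fat3, a protocadherin, at -2.38, and Ciapin1, an iron-sulfur cluster factor, at -1.84. They rested on 20, 7, 5, 3 and 5 UMIs in LysM-DKO ApoE-/-. Lpl, Cd9 and Ctsd had log2 ratios of -1.12 (-1.40 to -0.87), -1.05 (-1.22 to -0.89) and -0.72 (-0.81 to -0.63). The lipid-associated list as a whole had a median of -0.26 over 27 genes, with 1 past 2-fold higher and 4 past 2-fold lower, and the lysosome list had a median of -0.09 over 49, with 1 past 2-fold lower. Fabp5 and Lgals3 were at -0.27 and -0.22.

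Lyz2, the gene that encodes lysozyme M, was at 1973, 1249, 5729 and 738 CPM. LysM-DKO foamy macrophages had less of it, by a log2 ratio of -2.95 (-3.12 to -2.80) on western diet and -0.66 (-0.93 to -0.38) on normal diet. It was seen in 442 of 485 cells of WT ApoE-/- and 16 of 66 cells of LysM-DKO ApoE-/-. Within WT ApoE-/- it went from 2950 to 5592 and 7877 CPM as 1, 2 and 3 foam genes were seen, and within LysM-DKO ApoE-/- from 499 to 835 and 842 CPM. Counts of Lyz2 and its near copy Lyz1 are uncertain, since reads can match either gene. The labels do not say whether a Cre insertion disrupts Lyz2 in these mice.

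The efflux transporters differed by less. Abcg1 had a log2 ratio of -0.31 (-0.55 to -0.08) and Abca1 of -0.33 (-0.51 to -0.16), both lower in LysM-DKO ApoE-/-. With equal weight for each cell they were -0.07 and -0.14. Among the 19 measured genes of efflux and LXR the median was -0.11, and 0 were past 2-fold in either direction. In the foamy macrophages of normal diet Abca1 was at 308 and 293 CPM, a log2 ratio of -0.09 (-0.73 to 0.62).

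Inflammatory genes had a median log2 ratio of 0.69 on western diet, with 3 of 23 past 2-fold higher and the intervals of 18 above 0. Among all 8967 genes measured, the intervals of 722 were above 0. Cxcl2, a neutrophil chemokine, was at 51517, 20870.0, 4329 and 7442 CPM, a log2 ratio of 0.78 (0.73 to 0.84) on western diet. Ccl4, a chemokine of macrophages, was at 37215, 11244, 1847 and 2974 CPM, a log2 ratio of 0.69 (0.60 to 0.77). Il1b, the gene of interleukin-1 beta, and Ptgs2, an inducible prostaglandin synthase, had log2 ratios of 1.29 (1.07 to 1.51) and 1.92 (1.65 to 2.17). Without barcodes rich in wall markers the ratio of Ptgs2 was 1.25 and the list median 0.45. The list summed to 13101 CPM in foamy macrophages of WT ApoE-/- and 20651 CPM in those of LysM-DKO ApoE-/-. The other C1q macrophages of these libraries gave 18787 and 38197 CPM, so the direction was not particular to foamy macrophages. Tnf was at -0.22 (-0.41 to -0.04), which turned to 0.14 with equal weight for each cell. Genes of this list are also induced by tissue digestion, which was not tested.

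Some high ratios came from 1 barcode. A foamy macrophage of LysM-DKO ApoE-/- with 38455 UMIs held 98.3% of the UMIs of Pcolce2, 96.6% of Bdnf, 97.7% of Fbln2 and 87.0% of Thbs1. The log2 ratios of these genes were 2.81, 2.68, 2.02 and 2.71, and with equal weight for each cell they were -0.065, 0.18, -0.76 and 0.93. Slirp, a regulator of mitochondrial RNA, was at 1.93 and was seen in 35 of 66 cells.

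The epsin genes Epn1 and Epn2 were counted in every library, at low numbers outside WT ApoE-/-. Epn1 gave 8, 11, 146 and 22 UMIs in foamy macrophages, or 91.2, 43.5, 59.0 and 47.5 CPM, and Epn2 gave 5, 2, 51 and 6 UMIs, or 57.0, 7.91, 20.6 and 12.9 CPM. On western diet the log2 ratios were -0.28 (-1.03 to 0.34) for Epn1 and -0.57 (-2.18 to 0.55) for Epn2. Both intervals include 0, so a difference between genotypes on western diet was not detectable at this depth. On normal diet both genes were under the minimum of 20 UMIs over both sums, and no ratio was computed. Epn2 was below its level of 83.3, 83.6, 107 and 89.4 CPM in barcodes without a C1q UMI, and Epn3 gave 0 UMIs in every library. A count at the 3' end can still see transcript beyond a deleted exon. Apoe was at 3958, 4084, 7.67 and 4.32 CPM, near 0 only in the libraries labelled ApoE-/-.

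On normal diet the genotypes were compared over 10 and 32 foamy macrophages. MHC class II genes were higher in LysM-DKO and inflammatory genes lower. Of 2631 genes with at least 20 UMIs, 362 were past 2-fold higher (13.8%) and 294 past 2-fold lower (11.2%). The antigen presentation list had a median log2 ratio of 2.15, with 8 of 9 past 2-fold higher, and H2-Aa was at 2.84 (2.46 to 3.27). The 55 UMIs of H2-Aa in WT came from 3 cells, 1 of which held 52.7%.

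The inflammatory list had a median of -1.24 on normal diet, with 19 of 22 intervals below 0 and none above. Among all 2631 genes measured, 343 intervals were below 0 and 352 above. Ccl3, a further chemokine of macrophages, was at 9808, 1652, 434 and 753 CPM, a log2 ratio of -2.57 (-2.74 to -2.40) on normal diet, and 1 of the 10 WT cells held 39.7% of its UMIs. Tnf was at -2.14 (-2.34 to -1.94). Ch25h, which makes 25-hydroxycholesterol, gave 82 UMIs in 8 WT cells and 13 UMIs in 8 LysM-DKO cells, a log2 ratio of -4.14 (-5.15 to -3.33). The growth factor Areg and the cytokine Tnfsf9 had log2 ratios of -2.98 and -2.75. Ralgapa2, Inhba and Pvr were at -2.58, -2.49 and -2.30, on 7 or 8 UMIs in LysM-DKO.

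Several of the largest normal diet ratios rested on few cells. Ccl8, a chemokine of resident macrophages, was at least 19.6-fold higher in LysM-DKO, with 0 against 170 UMIs, of which 71.2% were in 1 cell. Lyz1, Mmp13, Retnla, Mmp19, Hebp1 and Esr1 were among others also at 0 UMIs in WT. Esr1, the estrogen receptor, was at least 3.24-fold higher, over 18 cells. Of the 392 UMIs of the B cell chemokine Cxcl13 in LysM-DKO, 99.7% were in 1 cell. Igfbp5, Igfbp6 and Vsig4, which had the lowest ratios, gave 41, 37 and 18 UMIs in WT, all from 1 cell each. Dnase1l3, a secreted nuclease, had a log2 ratio of 4.25, with 82 UMIs in 10 cells.

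Diet cannot be told apart from the ApoE genotype. Summed over all members, foamy macrophages of the ApoE-/- libraries held more lipid-associated RNA and less inflammatory and interferon-stimulated RNA. In LysM-DKO the higher lipid-associated RNA did not hold among members with 1 foam gene seen, as given below. Of 8627 genes measured in WT, 2229 were past 2-fold higher (25.8%) on western diet and 1254 past 2-fold lower (14.5%). Of 4711 measured in LysM-DKO, 527 were past 2-fold higher (11.2%) and 353 past 2-fold lower (7.49%). Genes with at least 100 UMIs had a median log2 ratio of 0.19 in the WT pair and 0.06 in the LysM-DKO pair, and the ratios below stand relative to these shifts. The WT normal diet sum rests on 10 cells.

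The lipid-associated list had a median log2 ratio of 1.55 in WT, with 17 of 27 past 2-fold higher, and 0.95 in LysM-DKO, with 13 of 26. For Spp1 the WT ratio was 8.17 (6.98 to 10.22) and the LysM-DKO ratio 4.92 (4.32 to 5.67), on 4 and 20 UMIs on normal diet. Ctsd and Ctsl were at 3.28 and 3.83 in WT and 1.63 and 2.03 in LysM-DKO, and Abcg1 was at 2.42 (1.47 to 3.84) and 2.34 (1.67 to 3.16). Lysosomal genes had medians of 0.86 and 0.39, and the WT value was 0.69 with genes at 0 UMIs set at their bound. The difference between the genotypes in these responses was not tested. The mix of members by foam genes seen differed between the diets as well. Members with 1 foam gene seen numbered 8, 30, 163 and 22. In them lipid-associated genes summed to 10633, 14710, 24734 and 10456 CPM, and lysosomal genes to 13991, 21617, 26076 and 16937 CPM. Both lists were thus higher on western diet in WT and lower in LysM-DKO. The part of this mix in the ratios was not tested.

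The inflammatory list had a median of -2.13 in WT, with 20 of 23 past 2-fold lower, and -0.42 in LysM-DKO, with 9 of 23. Cxcl2 was at -3.57 and -1.49, and Ccl4 at -4.33 and -1.92. Interferon-stimulated genes had medians of -1.83, with 13 of 20 past 2-fold lower, and -2.13, with 12 of 15. Resident and alternative genes were at -1.72 and -1.66, and Mrc1 at -2.65 and -2.10. Antigen presentation genes had medians of 0.09 and -0.16 between diets, with 2 of 10 past 2-fold higher and 2 past 2-fold lower in WT and 0 of 10 past 2-fold in LysM-DKO, beside 2.15 and 1.80 between the genotypes.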

How the data were processed

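Aortas were digested with collagenases and liberase, and 1 library per group was made with 10x Genomics 3' chemistry, per the labels' protocols. The deposited counts are UMIs per gene and barcode, made with Cell Ranger 6.0.1 for the normal diet and 6.1.2 for the western diet per the file headers; the submitters' processing notes name Cell Ranger 6.1.2, Seurat 4.1.0 and mm10. The other deposited files hold gene and barcode names. The matrices list 32285 genes.

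The rule for foamy macrophages was applied to each barcode, and UMIs were summed per library and class. The members, gene lists and markers were chosen with earlier results of these data known. CPM scales the UMIs of a class to a sum of 1000000. Between groups, log2 ratios of CPM, with 0.5 UMIs added to both sums, are given for genes with at least 20 UMIs over both, with exact 95% binomial intervals and no p-values, since each group is 1 sample. Within libraries, foamy and other C1q macrophages were compared with edgeR 4.0.16 (quasi-likelihood, trimmed mean scaling, library as a block) in R 4.3.3, and p-values were adjusted by Benjamini-Hochberg over all genes tested; the 9 rule genes were not counted. Whether the 4 libraries hold 1 or more animals each is not given in the sources used here. The code was tested on simulated data.

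Named genes were the members of each list with the largest or most abundant change; the 10 highest and 10 lowest called genes with a mean of at least 50 CPM and 1 direction in all 4 libraries; and, between genotypes, the 10 highest and lowest with at least 100 UMIs (20 on normal diet), an interval apart from 0 and a level no lower than in barcodes without a C1q UMI. Genes of the rule, mitochondrial, ribosomal, hemoglobin, immunoglobulin, sex-linked marker and unnamed genes were left out. Epn1, Epn2, Epn3, Apoe, Lyz2, Abca1 and Abcg1 were always named. Doublets were scored with scrublet in scanpy 1.11.5, at 0.8% per 1000 barcodes, and were removed only as an alternative. Alternatives were other cutoffs of depth, mitochondrial share, C1q and foam genes, DESeq2 1.42.0, no filter, no block, other comparison classes, median-ratio scaling and equal weight for each cell. Leaving out barcodes with over 1% wall marker UMIs was chosen after seeing the data. Results for some genes are not reported here.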

Additional observations from a re-analysis of the deposited data

Results flagged for a closer look

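For 5 results in foamy macrophages the LysM-DKO to WT ratio (log2) had opposite signs on the diets, and the difference was not tested, since each group was 1 library. The inflammatory list had a median of -1.24 on normal diet and 0.69 on western diet. Ccl3 was at -2.57 and 0.80, and Tnfsf9, a cytokine of the tumor necrosis factor family, was at -2.75 and 0.95. Areg was at -2.98 and 1.17, with 67.3% of its UMIs from 1 cell in WT on normal diet. Ccl8 was at 6.89 and -3.26; the first value depends on the 0.5 UMIs added, since WT on normal diet had 0 UMIs. The normal diet side of each rests on 10 WT cells.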

How the results depend on the processing

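The foamy share moved with the cutoffs. With at least 4 foam gene UMIs it was 2.35, 6.42, 38.1 and 33.3% in the usual order of libraries, and thinned to 1000 UMIs it was 0, 3.08, 38.1 and 20.2%. In WT ApoE-/- it was also 63.7% with at least 2000 UMIs, 47.3% with at least 500, 68.0% with at least 10 C1q UMIs and 68.8% without barcodes rich in wall markers. The same settings gave 52.5, 46.8, 48.5 and 48.4% in LysM-DKO ApoE-/-. Genes called higher and lower in foamy macrophages numbered 210 and 273 with no filter on low counts, 0 and 0 with no library block (765 at an unadjusted p under 0.05 in edgeR), 227 and 269 against resident macrophages only, 56 and 87 without doublets, and 49 and 90 for 4 or more foam UMIs against 0. DESeq2 called 110 and 146. Leaving out 1 library gave 20 to 83 higher and 19 to 133 lower. Past 2-fold with at least 50 UMIs, there were 116 higher and 109 lower in LysM-DKO on normal diet, 152 and 285 on western diet, 1470.0 and 746 between diets in WT, and 169 and 151 in LysM-DKO. Between genotypes on western diet, weighting cells equally gave 538 and 1136. Directions turned for Abca1 in foamy over other C1q macrophages (-0.10 to 0.62 with 1 library left out, below 0 without WT ApoE-/-), and for Lyz2 in the same comparison, from 0.24 to between -0.32 (without WT ApoE-/-) and 0.69 with 1 library left out, -0.50 against resident macrophages only and -0.043 without barcodes rich in wall markers. With equal weight for each cell Fbln2, Pcolce2 and Tnf turned to -0.76, -0.065 and 0.14. The cause was not tested. Lyve1 went to 2.34 against neither macrophages only, which follows from how that class was cut. Foamy and other C1q macrophages were paired within libraries throughout, but between genotypes or diets no paired analysis was possible because each group holds 1 library and the labels give no replicate numbers. The 10 members in WT on normal diet limit every value that uses them.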
